A study of Mus musculus with 40 samples.

Results

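High-fat diet (HFD) without pioglitazone was compared with control diet in the livers of wild-type (WT) mice. The comparison rests on 5 HFD mice, numbered 826 to 830, and 5 control mice, numbered 831 to 835, which are 10 of the 40 mice of the series. They were picked by their diet, drug and genotype labels, with earlier results of these data known. All 10 were male C57BL6/J mice with an intact Pparg gene, fed from an age of 2 months for 3 months and killed at 5 months. The control diet was low in fat, the HFD drew 60% of its calories from fat, and neither was supplemented with pioglitazone (Pio), a thiazolidinedione drug that activates the nuclear receptor PPARγ. Poly-A RNA of whole liver was sequenced, and the deposited values are raw read counts per gene, normalised here to CPM, a gene's counts scaled to a common library size. The diets were also compared in 2 further pairs of groups. The first was 5 WT HFD-Pio against 5 WT Pio mice, with Pio given in the diet. The second was 5 HFD against 5 control mice without Pio in which floxed Pparg had been deleted by Alb-Cre (KO). Alb-Cre is a transgene that is active in hepatocytes. The mice of both pairs were male too, were fed from an age of 2 months for 3 months and were killed at 5 months. Because whole liver was used, a change in the number of cells of one type and a change in RNA per cell cannot be told apart.

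The liver makes fatty acids from sugar by de novo lipogenesis. ATP citrate lyase and acetyl-CoA carboxylase supply the building blocks, fatty acid synthase joins them, elongases lengthen the chain, and stearoyl-CoA desaturase adds a double bond. When fat is abundant in the diet or released from stores, the liver instead takes up fatty acids and oxidises them in mitochondria and peroxisomes, and it exports part of the product as ketone bodies. The nuclear receptor PPARα is known for activating the genes of oxidation, and the factors SREBP-1c and ChREBP for activating those of synthesis. PPARγ, the receptor of Pio, is scarce in hepatocytes and abundant in adipocytes.

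The promoters of 3 of the lipogenic genes that were lower on HFD are shown, picked from the 7 that hold the letters CCAAT on either strand. Acly and Elovl6, which were lower too, do not hold these letters there. The 3 genes shown are Fasn (fatty acid synthase), Pnpla3 (a lipid droplet protein of the patatin family) and Elovl5 (an elongase). Each sequence runs 5′ to 3′ over the 250 bases before the start of the gene, from RefSeq on build GRCm38.p6, and capitals mark the letters CCAAT or their reverse complement, the box to which the factor NF-Y is known to bind. The Fasn stretch is chr11:120824548-120824797 on the minus strand, that of Pnpla3 is chr15:84167566-84167815 on the plus strand, and that of Elovl5 is chr9:77917115-77917364 on the plus strand.
Fasn: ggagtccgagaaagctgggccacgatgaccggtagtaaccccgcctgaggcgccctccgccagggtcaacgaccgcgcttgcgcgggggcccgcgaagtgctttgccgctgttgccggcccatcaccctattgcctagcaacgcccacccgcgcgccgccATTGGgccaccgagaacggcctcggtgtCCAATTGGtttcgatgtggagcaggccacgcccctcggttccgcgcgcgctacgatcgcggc
Pnpla3: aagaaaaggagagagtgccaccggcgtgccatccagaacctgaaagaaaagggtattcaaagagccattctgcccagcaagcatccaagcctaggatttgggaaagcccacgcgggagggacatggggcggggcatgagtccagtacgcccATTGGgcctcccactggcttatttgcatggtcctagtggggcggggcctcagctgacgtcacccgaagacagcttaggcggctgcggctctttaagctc
Elovl5: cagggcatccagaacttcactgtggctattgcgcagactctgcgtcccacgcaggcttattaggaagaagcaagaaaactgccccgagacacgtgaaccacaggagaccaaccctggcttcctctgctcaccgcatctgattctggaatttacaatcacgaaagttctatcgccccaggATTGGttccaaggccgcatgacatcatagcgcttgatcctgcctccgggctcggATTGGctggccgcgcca
Fasn holds 3 matches, of which 2 overlap in one run of capitals, Pnpla3 holds 1 and Elovl5 holds 2. Of the 13 lipogenic genes that were lower on HFD, 11 had a promoter sequence, and the CCAAT letters stood on either strand in 7 of them (Fasn, Acacb, Me1, Pnpla3, Elovl5, Acss2 and Pgd), while 37.5% of all 27025 genes with a sequence held them. The E-box CACGTG was found in 1 of the 11, Elovl5, against 6.86% of all genes. The sterol regulatory element core TCACNCCAC was found in 0 of the 11, against 1.22% of all genes, and its absence from these windows says only that these letters are not there. The nuclear receptor half-site AGGTCA was found in 2 of the 11, against 15.8% of all genes. Of the 16 oxidation and ketogenesis genes that were higher, 10 had a promoter sequence, and these held CCAAT in 4, the half-site in 3, the sterol element core in 1 and CACGTG in 0. A match is a string of letters, and binding was not measured at these sites here.

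The depth of the 10 libraries was 16738056 to 22321083 counts in HFD mice (median 18061374) and 17508630 to 37101491 in control mice (median 27683726), and the totals did not differ beyond their spread (exact permutation test, two-sided, p = 0.111). The hepatocyte marker list summed to 97810 to 157200 CPM in HFD mice and 76160 to 128500 CPM in control mice. All 10 pancreatic acinar and all 7 skeletal muscle markers were too low to be tested, and the adipocyte genes Adipoq, Lep, Retn and Plin1 stayed under 1 CPM in every one of the 10 mice. Pparg itself lay at 8.54 to 12.2 CPM in HFD mice and at 5.63 to 10.2 CPM in control mice (log2 fold change 0.38 ± 0.17 (SE), adjusted p = 0.257, edgeR), so that the ranges overlap.

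In each group 1 library stood apart. In control mouse 832, 1504 genes differed over 2-fold from the mean of the other mice, and in HFD mouse 829 this was true of 1139 genes, against 66 to 201 genes in each of the other 8. Mice 829 and 832 were left out of every such mean, so this contrast is partly built in. The median Spearman correlation with the other 9 libraries was 0.932 for mouse 832, 0.949 for mouse 829 and at least 0.972 for the rest. Mouse 832 held the highest Col1a1 (114 CPM, against 4.79 to 14.7 in the other control mice) and Atf3 (63.3 CPM, against 1.49 to 9.20). Its summed hepatocyte markers, 76160 CPM, were the lowest of the 10 mice. Mouse 829 held the lowest share of mitochondrially encoded mRNA (3.72% of counts, against 6.44% to 8.92% in the other HFD mice). No library was removed. Where a named gene lost its call without mouse 829, without mouse 832 or without both, at least 1 of these losses is given where the gene is described.

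HFD changed 349 of 12447 genes tested in WT liver (2.80%; edgeR quasi-likelihood F test, adjusted p of at most 0.05 by Benjamini-Hochberg). Of these, 166 were higher (1.33% of all genes tested) and 183 were lower (1.47%). Among the higher genes, 61 differed at least 2-fold, and in 117 all 5 HFD mice lay above all 5 control mice. Among the lower genes, 106 differed at least 2-fold, and in 101 all 5 HFD mice lay below. Such complete separation was found upward in 1.53% and downward in 1.52% of all genes tested. The median log2 fold change of all genes was -0.015.

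De novo lipogenesis was the list with the most genes lower on HFD. Of its 23 genes, 13 were lower, 0 were higher, and the median log2 fold change was -1.41. Over all genes tested, 1.47% were called lower. In 10 of the 23, all 5 HFD mice lay below all 5 control mice. With the 10 mice fitted alone, 6 of 23 were called, all lower.
Fasn, which joins the acetyl and malonyl units of a new fatty acid, was at 3667, 1670, 6423, 2500 and 3114 CPM in control mice 831 to 835 and at 1163, 561, 1235, 908 and 1147 CPM in HFD mice 826 to 830. The groups do not overlap, and the lowest control mouse is 832. The log2 fold change was -1.79 ± 0.35 (SE; adjusted p = 0.00831, edgeR). Acacb, the carboxylase of the mitochondrial surface, was at 379, 187, 872, 438 and 545 CPM in control mice and at 86.3, 56.8, 41.9, 58.2 and 86.2 CPM in HFD mice. Every HFD mouse lay well below every control mouse, and the difference was -2.88 ± 0.38 on the log2 scale (adjusted p = 0.00031, edgeR). Acaca, its cytosolic counterpart, fell less, by 1.14 on the log2 scale (adjusted p = 0.0218, edgeR).
Scd1, the desaturase that makes oleic acid, was at 17490, 11520, 32160, 22400 and 19410 CPM in control mice and at 5517, 3890, 2177, 1455 and 4905 CPM in HFD mice. It was lower in each HFD mouse than in any control mouse, with a log2 fold change of -2.52 ± 0.47 (adjusted p = 0.0056, edgeR). Acly, which splits citrate into acetyl-CoA, was at 681, 514, 2163, 1050 and 1035 CPM in control mice and at 311, 177, 250, 270 and 399 CPM in HFD mice, and its difference was -1.95 ± 0.32 on the log2 scale (adjusted p = 0.00191, edgeR).

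Pnpla3 had the largest fall of the list. It was at 43.9, 13.4, 164, 22.9 and 35.6 CPM in control mice and at 3.13, 3.03, 1.69, 1.2 and 2.31 CPM in HFD mice (log2 fold change -4.61 ± 0.66, adjusted p = 0.000519, edgeR). Control mouse 833 stood far above the other control mice here. Without it, in a fit that was otherwise the same, the gene was still called, and over all alternatives the log2 fold change lay between -4.85 and -3.66. An annotated gene on the same strand, Gm49513, overlaps exons of Pnpla3. The study counted unambiguous reads only, so reads over both genes count to neither if its annotation held both.
The elongases Elovl5 (-1.41 ± 0.26, adjusted p = 0.00561) and Elovl6 (-1.68 ± 0.33, adjusted p = 0.00831) were lower as well, and so were the sources of NADPH, Pgd (-1.11 ± 0.18, adjusted p = 0.002) and G6pdx (-1.79 ± 0.44, adjusted p = 0.0313), all as log2 fold changes from edgeR. Elovl5 was at 763 to 1195 CPM in control and 169 to 478 CPM in HFD mice, and Elovl6 at 113 to 277 and 29 to 72.1 CPM. Pgd was at 102 to 165 CPM in control and 47.9 to 61.3 CPM in HFD mice. These 3 genes had no overlap between the groups.
The remaining called members, named after their values were seen as were Elovl6 and G6pdx, were Acss2, which activates acetate (-1.67), Scd2 (-1.93) and the malic enzyme Me1 (-1.52). The 10 members that did not pass the test include the upstream factors. Srebf1, which encodes SREBP-1c, had a log2 fold change of -0.68 (adjusted p = 0.119, edgeR), and Mlxipl, which encodes ChREBP, one of 0.12 (adjusted p = 0.874, edgeR). Fads1 and Fads2, the desaturases of polyunsaturated fatty acids, had values of -0.35 and -0.47 and were not called.
Without mice 829 and 832, 14 of the 23 were lower, with a median of -1.14. Scd2 was then not called (-0.77, adjusted p = 0.272): its level in control mouse 832, 48.8 CPM, exceeded the 5.63 to 12.9 CPM of the other control mice. Without mouse 829 alone, 10 of 23 were called, and Acaca (adjusted p = 0.0557), G6pdx (0.0744), Scd2 (0.0933) and Me1 (0.101, all edgeR) were not among them.

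**Figure D1:**
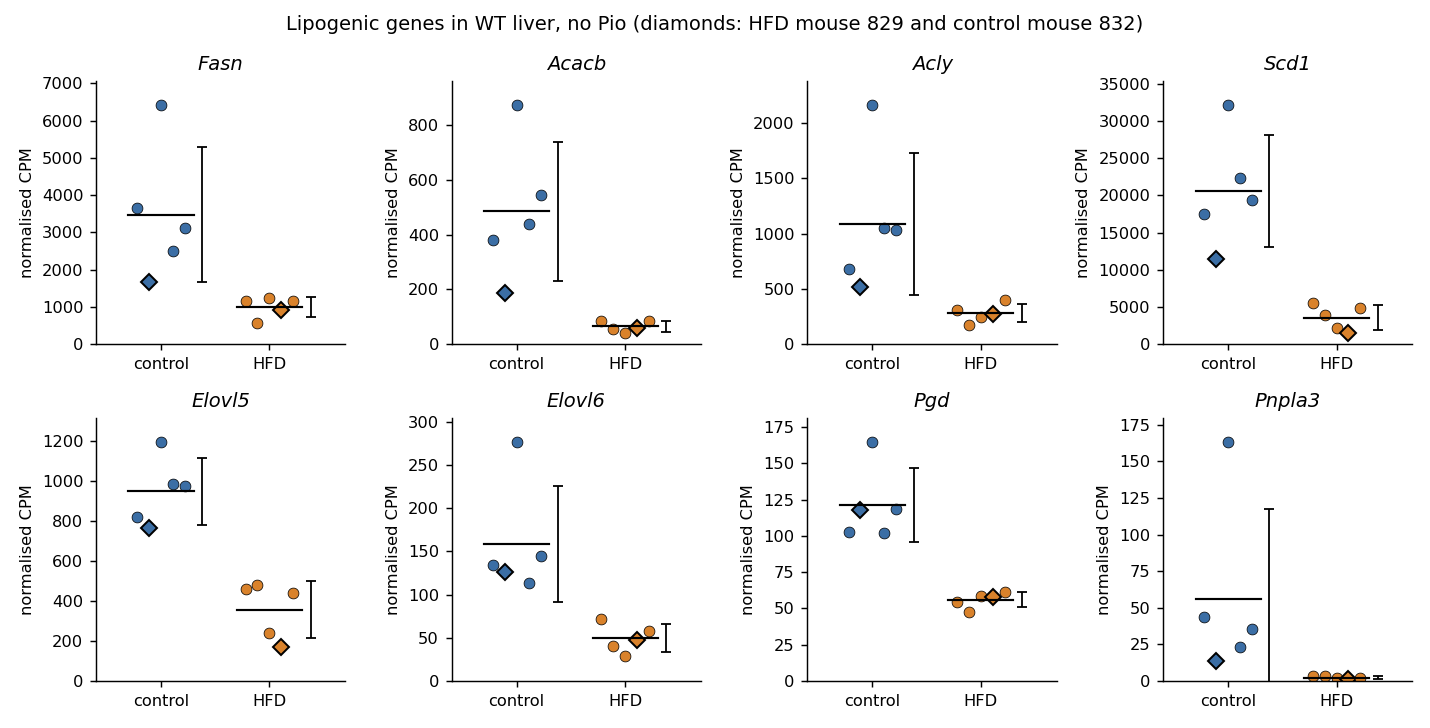
Normalised CPM (vertical axis, from 0) of 8 lipogenic genes in 5 control and 5 HFD WT mice without Pio; each point is a mouse, the horizontal line is the mean, the bar beside it is ± 1 SD (cut at 0 for Pnpla3), and diamonds mark control mouse 832 and HFD mouse 829. In all 8 genes every HFD mouse lies below every control mouse, and control mouse 833 is the highest control mouse in each.

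Some genes of fatty acid oxidation were higher on HFD. In the list of mitochondrial oxidation and ketogenesis, 9 of 27 genes were higher, 0 were lower, and the median log2 fold change was 0.44. Over all genes tested, 1.33% were called higher. In 8 of the 27, all HFD mice lay above all control mice. The other 18 were not called, and with the 10 mice fitted alone 1 of 27 was called.
Acsl1, which activates long-chain fatty acids, was at 917, 398, 646, 751 and 640 CPM in control mice and at 1383, 1145, 1471, 1623 and 1390 CPM in HFD mice. The groups do not overlap, and the log2 fold change was 1.06 ± 0.17 (adjusted p = 0.0015, edgeR). Cpt1a, the gatekeeper of entry into mitochondria, was at 353, 291, 328, 346 and 396 CPM in control mice and at 537, 499, 516, 475 and 583 CPM in HFD mice, a tighter and smaller difference (0.61 ± 0.13, adjusted p = 0.0168, edgeR). Slc25a20, the carrier of acylcarnitine across the inner membrane, was at 42.7 to 68.3 CPM in control and 87.3 to 98.9 CPM in HFD mice (0.74 ± 0.14, adjusted p = 0.00755, edgeR).
Acadm, the medium-chain dehydrogenase, was at 167, 126, 114, 149 and 149 CPM in control mice and at 241, 248, 208, 266 and 257 CPM in HFD mice (0.79 ± 0.13, adjusted p = 0.00138, edgeR). Acat1, which condenses acetyl-CoA, went from 150 to 287 CPM in control to 424 to 515 CPM in HFD mice (1.00 ± 0.15, adjusted p = 0.000584, edgeR), so that its groups do not overlap. Bdh1 (0.72), the carnitine transporter gene Slc22a5 (0.66) and the isomerase gene Eci2 (0.84), named after their values were seen, were called as well. All 3 lost their call without mice 829 and 832 (adjusted p = 0.0517, 0.0877 and 0.164, edgeR), and Slc22a5 and Eci2 lost it without either mouse alone. Other members of the list were not called, among them Hadha (0.38, adjusted p = 0.161), Acadvl (-0.08, adjusted p = 0.863) and Acadl (0.31, adjusted p = 0.279). The gene of PPARα, Ppara, had a log2 fold change of 0.55 (adjusted p = 0.1998, edgeR). Without mice 829 and 832, 7 of 27 were called, all higher, with a median of 0.40.

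In the list of peroxisomal and omega oxidation, 7 of 25 genes were higher, 0 were lower, and the median log2 fold change was 0.58. The other 18 were not called, and with the 10 mice fitted alone 1 of 25 was called. Vnn1, a pantetheinase and known target of PPARα, was at 42.2, 23.1, 29.7, 20.9 and 37.5 CPM in control mice and at 77.4, 58.8, 71.6, 51.8 and 74.4 CPM in HFD mice, without overlap (1.12 ± 0.19, adjusted p = 0.00295, edgeR). Cyp4a10, a microsomal omega-hydroxylase of fatty acids, was at 152, 150, 90.0, 155 and 122 CPM in control mice and at 173, 271, 376, 618 and 263 CPM in HFD mice. The highest HFD value belongs to mouse 829, and the log2 fold change was 1.34 ± 0.26 with all mice (adjusted p = 0.00714) and 1.03 without mouse 829 (adjusted p = 0.0154, both edgeR). Its neighbour Cyp4a14 reached 453 to 1848 CPM in HFD mice against 354 to 975 CPM in control mice, so that the groups overlap, and it was not called (1.06 ± 0.30, adjusted p = 0.064, edgeR).
Slc27a2, which imports and activates very long chains (0.80 ± 0.15, adjusted p = 0.0056), Pex11a, a peroxisome division factor (0.77 ± 0.16, adjusted p = 0.0118), and Abcd2, a peroxisomal transporter (1.27 ± 0.28, adjusted p = 0.0167, all edgeR), were also higher. Abcd2 was at 3.47 to 14.7 CPM in control and at 16.1 to 25 CPM in HFD mice. The acyltransferase genes Crot (0.79) and Crat (0.93), named after their values were seen, were called as well, and Crat was not called without mouse 829 (adjusted p = 0.0597) or without mouse 832 (adjusted p = 0.0594). The list of 78 nuclear oxidative phosphorylation genes, which supply the respiratory chain, had 0 called genes in edgeR and a median of 0.16, with values from -0.50 to 0.73.

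**Figure D2:**
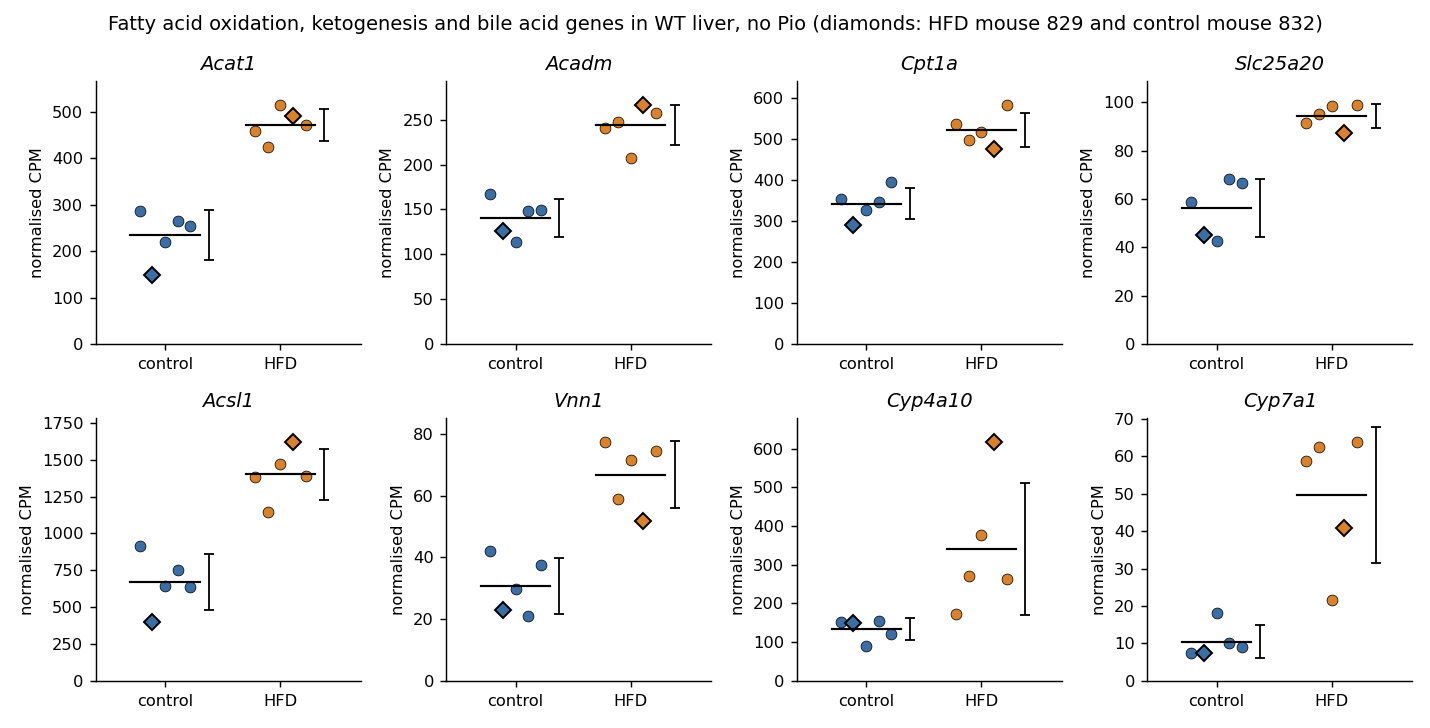
Normalised CPM (vertical axis, from 0) of 8 genes of fatty acid oxidation, ketogenesis and bile acid synthesis in 5 control and 5 HFD WT mice without Pio; points are mice, horizontal lines are means, bars are ± 1 SD, and diamonds mark control mouse 832 and HFD mouse 829. In all 8 genes every HFD mouse lies above every control mouse, and Cyp4a10 in mouse 829 (618 CPM) is far above the other HFD mice.

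The genes of lipid droplets, fatty acid uptake and triglyceride storage moved both ways. Of 38 tested, 4 were higher, 3 were lower, and the median log2 fold change was 0.16. Over all genes tested, 2.80% were called in either direction. The higher genes were Mgll (monoacylglycerol lipase), Plin4 (a droplet coat protein), Gpd1 (which makes glycerol 3-phosphate) and Slc27a1 (a fatty acid transporter). Gpd1 was not called without mouse 829 (adjusted p = 0.0687), without mouse 832 (0.0621) or without both (0.118, all edgeR). Slc27a1 kept its call in these 3 fits but lost it in 9 of 19 alternatives. Mgll was at 159 to 275 CPM in control and at 309 to 385 CPM in HFD mice (0.87 ± 0.17, adjusted p = 0.00714, edgeR). Plin4 was at 16.5, 23, 15.7, 19.2 and 18.3 CPM in control mice and at 25.5, 60.1, 29.2, 45.2 and 35.7 CPM in HFD mice, which do not overlap (1.08 ± 0.23, adjusted p = 0.0167, edgeR).
The lower genes were Fabp5, Plin3 and Abhd5. Fabp5, a fatty acid binding protein, was at 17.9, 4.75, 124, 63.3 and 50.9 CPM in control mice and at 3.00, 9.65, 3.58, 4.37 and 7.52 CPM in HFD mice. Control mouse 832 lies within the HFD range, and the other 4 control mice lie above it. The log2 fold change was -3.21 ± 0.60 (adjusted p = 0.00561, edgeR) and -3.50 without mouse 832. Plin3 (-0.51) and Abhd5, the activator of the triglyceride lipase (-0.71), were called with adjusted p of 0.039 and 0.046 (edgeR). Each lost its call without mouse 829 (0.0929 and 0.091, edgeR). Plin3 also lost it without mouse 832 (0.054) and without both mice (0.0915, both edgeR). Of 19 alternatives, the call was lost in 12 for Plin3 and in 14 for Abhd5.
Of the genes that the study follows as examples of PPARγ targets, Plin4 was called, and Cav1, Cd36, Cfd, Cidec, Fabp4 and Mogat1 were not. Cd36, a fatty acid scavenger receptor, was at 21 to 72.5 CPM in control and 22.1 to 47.4 CPM in HFD mice (-0.23 ± 0.28, adjusted p = 0.714, edgeR). Cidec, which enlarges droplets, was at 6.51 to 43.8 and 7.37 to 17.9 CPM (-0.42 ± 0.44, adjusted p = 0.666, edgeR). For both, the highest control value belongs to mouse 832, and without it the sign turned, to 0.11 for Cd36 and 0.53 for Cidec. Cfd, the adipocyte protease adipsin, was at 0.44 to 3.75 CPM in control mice and at 6.05, 36.4, 4.87, 2.93 and 3.47 CPM in HFD mice (2.64 ± 0.75, adjusted p = 0.0627, edgeR). HFD mouse 827, with 36.4 CPM, had the highest sum of the 8 adipocyte markers, of which Cfd is one. The sum of the other 7 was 50.2 CPM in this mouse, 21.01 to 31.2 CPM in the other HFD mice and 20.7 to 28.95 CPM in control mice, and the part of adipose tissue in this value was not tested.

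Bile acid synthesis was led by Cyp7a1, the rate-limiting enzyme of the classic pathway. It was at 7.49, 7.59, 18.1, 10.2 and 8.99 CPM in control mice and at 58.8, 62.5, 21.6, 40.9 and 63.9 CPM in HFD mice. The lowest HFD mouse was above the highest control mouse, and the log2 fold change was 2.25 ± 0.29 (adjusted p = 0.00031, edgeR). Nr1h4, which encodes the bile acid receptor FXR, was at 39.4 to 75.8 CPM in control and 68.2 to 114 CPM in HFD mice (0.64 ± 0.17, adjusted p = 0.0427, edgeR), and it was not called without mouse 832 (adjusted p = 0.0853, edgeR). The Nr1h4 call was kept in 9 of 19 alternatives. Cyp8b1, the sterol 12α-hydroxylase, was at 410, 82.4, 483, 358 and 379 CPM in control mice and at 644, 711, 759, 790 and 680 CPM in HFD mice. Its groups do not overlap, yet it missed the threshold with all mice (1.07 ± 0.29, adjusted p = 0.0516) and passed it without mouse 832 (0.83, adjusted p = 0.0116, both edgeR). In all, 2 of the 26 genes of bile acid synthesis, conjugation and transport were called, both higher, and the median was 0.35. Over all genes tested, 1.33% were called higher. Cholesterol synthesis, whose product is the substrate of Cyp7a1, had 0 of 25 genes called and a median of -0.027, with values from -1.0 to 0.70.

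Among genes of amino acid and glucose metabolism, Bhmt, which remethylates homocysteine with betaine, was at 69.9, 115, 120, 116 and 143 CPM in control mice and at 293, 290, 372, 349 and 310 CPM in HFD mice, without overlap (1.52 ± 0.20, adjusted p = 0.000358, edgeR). Gm15622, an annotated gene that overlaps exons of Bhmt on the opposite strand, was called higher as well (1.5, but adjusted p = 0.0515 without mouse 832 and 0.0552 without both mice). The sources used here do not state whether counting used the strand. It is therefore open whether reads over both genes were left out as ambiguous. In the list of gluconeogenesis and insulin signalling, 0 of 20 genes were higher and 2 were lower, both enzymes of amino acid breakdown. Over all genes tested, 1.47% were called lower. Tat, tyrosine aminotransferase, was at 2134, 2900, 5486, 2734 and 2685 CPM in control mice and at 1862, 1636, 1298, 1566 and 1279 CPM in HFD mice (-1.06 ± 0.24, adjusted p = 0.0172, edgeR). Sds, serine dehydratase, was at 190 to 269 CPM in control and 65.7 to 146 CPM in HFD mice (-1.06 ± 0.27, adjusted p = 0.0352, edgeR), and it was not called without mouse 829 (adjusted p = 0.0504, edgeR). The gluconeogenic genes Pck1 (-0.21, adjusted p = 0.7215) and G6pc (-0.70, adjusted p = 0.175, edgeR) were not called.

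Of 28 xenobiotic cytochrome P450 genes and their regulators, 3 were higher and 1 was lower, with a median of 0.34. Over all genes tested, 2.80% were called in either direction. Nr1i3, which encodes the receptor CAR, was at 70.7, 17.8, 26.4, 49.2 and 65.6 CPM in control mice and at 143, 89.6, 246, 234 and 159 CPM in HFD mice, without overlap (1.92 ± 0.32, adjusted p = 0.00191, edgeR). Cyp2a12 was at 277 to 323 CPM in control and 389 to 575 CPM in HFD mice (0.71 ± 0.14, adjusted p = 0.00836, edgeR), and Cyp2e1, the ethanol-oxidising P450, was at 1040 to 5152 and 5073 to 10830 CPM (1.11 ± 0.28, adjusted p = 0.0322, edgeR). The highest Cyp2e1 value belongs to mouse 829, without which the gene was not called (adjusted p = 0.0794, edgeR). Cyp3a11 was at 469, 1169, 210, 340 and 215 CPM in control mice and at 113, 233, 112, 93.0 and 130 CPM in HFD mice. The groups overlap, and the call (-1.82 ± 0.38, adjusted p = 0.0118) was lost without mice 829 and 832 (-1.06, adjusted p = 0.0636, both edgeR). Cyp2b9, a P450 known to be higher in female than in male liver, spread over 1.19, 2.06, 47.9, 184 and 53 CPM in HFD mice and over 14.0, 8.73, 1.17, 0.78 and 0.55 CPM in control mice, and was not called (3.51 ± 1.07, adjusted p = 0.0881, edgeR). Hao2, also known to be higher in females, was called (adjusted p = 0.0116, edgeR), but it was at most 0.111 CPM in control mice, with 0 reads in 3 of them, and at 0.044, 0.228, 0.780, 3.55 and 1.04 CPM in HFD mice. It passed the filter on low counts only through mice in which it is high and was not tested without mouse 829, so its call supports no direction.

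Some of the largest changes were in genes outside these pathways. Chrna4, a subunit of the nicotinic acetylcholine receptor, was at 71.8, 63.1, 552, 90.9 and 106 CPM in control mice and at 12.5, 8.22, 4.36, 2.54 and 16.2 CPM in HFD mice. The groups are far apart, control mouse 833 is much the highest, and the log2 fold change was -4.33 ± 0.62 (adjusted p = 0.000503, edgeR). Chrna2, another subunit, changed the opposite way, from 3.90 to 7.20 CPM in control to 11.6 to 21.7 CPM in HFD mice (1.68 ± 0.23, adjusted p = 0.000426, edgeR). Lepr, the leptin receptor gene, was at 8.05, 4.53, 19.3, 10.4 and 10.3 CPM in control mice and at 1.85, 3.31, 1.36, 1.58 and 1.73 CPM in HFD mice (-2.41 ± 0.35, adjusted p = 0.00059, edgeR).
Car3, the carbonic anhydrase of muscle, fat and male liver, was at 1407, 1042, 1319, 1864 and 1333 CPM in control mice and at 3806, 3154, 4877, 2762 and 4426 CPM in HFD mice. It rose in every HFD mouse above the highest control mouse (1.45 ± 0.20, adjusted p = 0.000368, edgeR). Gm4952, a predicted gene of the glycine N-acyltransferase type, had the smallest p of all and was at 16.0 to 37.4 CPM in control and 66.3 to 116 CPM in HFD mice (2.00 ± 0.21, adjusted p = 5.66e-05, edgeR). Slc17a8, a vesicular glutamate transporter gene, was at 2.32 to 5.09 CPM in control and 15.1 to 26.6 CPM in HFD mice (2.55 ± 0.32, adjusted p = 0.000244, edgeR). Pcp4l1, Aatk, Lgals4 and Tpm2 were higher without overlap by log2 fold changes of 2.42, 1.98, 1.41 and 1.64. Atg16l2, a relative of an autophagy gene, was lower without overlap, at 26.2 to 64.8 CPM in control and 5.85 to 14.6 CPM in HFD mice (-2.08 ± 0.30, adjusted p = 0.000503, edgeR).

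Several of the genes that were lower on HFD were highest in control mouse 832. Gstm3, a glutathione transferase, was at 111, 611, 207, 125 and 72.9 CPM in control mice and at 29, 27.5, 24.9, 62.5 and 29.8 CPM in HFD mice (-2.70 ± 0.49, adjusted p = 0.00525), and it was called without mouse 832 with a smaller difference (-1.89, adjusted p = 0.00766, both edgeR). Psat1 (serine synthesis), Dhrs9, Tnfrsf12a and H2-Q1 followed the same pattern, with log2 fold changes of -2.81, -2.33, -1.84 and -2.14 with all mice and of -1.89, -1.36, -1.17 and -1.60 without mouse 832, called in both. Atf3, a stress-induced transcription factor (-3.41, adjusted p = 0.0218), Ntrk2 (-3.38, adjusted p = 0.0218) and Srxn1, an antioxidant gene (-1.46, adjusted p = 0.041), were not called without it (-1.43, -2.11 and -0.57, adjusted p = 0.131, 0.111 and 0.111, all edgeR). Atf3 and Srxn1 also lost their calls without mouse 829 (adjusted p = 0.0557 for each, edgeR). Without both mice, Atf3 and Ntrk2 were not called (adjusted p = 0.174 and 0.135), and Srxn1 was (0.0368, all edgeR).
The list of collagen, matrix and stellate cell genes moved with mouse 832. The Kupffer cell and macrophage list kept a median below 0 without mouse 832 (-0.21 over 22 genes tested, against -0.49 over 25 with all mice). The 32 collagen, matrix and stellate cell genes summed to 2306 CPM in mouse 832, to 636 to 820 CPM in the other control mice and to 621 to 936 CPM in HFD mice. Of the 31 tested, 30 had a fitted value below 0, 0 were called, and the median of -0.52 became 0.015 without mouse 832. Of the 25 Kupffer cell and macrophage genes tested, 1, Mpeg1, was called lower (-0.88, adjusted p = 0.0494), and 0 were called without mouse 832. The Mpeg1 call was lost in 16 of 19 alternatives, among them leaving out any 1 of 8 mice, and the summed list was highest in control mouse 833 (1143 CPM, against 1008 CPM in mouse 832). Col1a1 had a log2 fold change of -1.79 with all mice and of 0.17 without it (adjusted p = 0.206 and 0.928, edgeR).

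**Figure D3:**
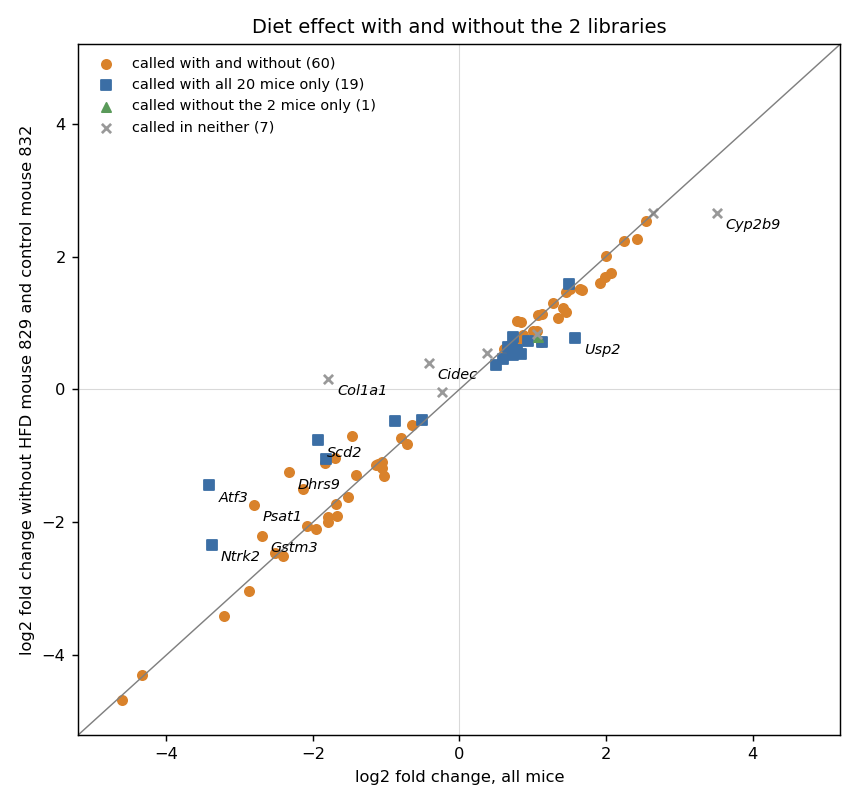
Log2 fold change, HFD minus control, of 87 genes named here or on a gene list, with all mice (horizontal axis) and without HFD mouse 829 and control mouse 832 (vertical axis); the line marks equal values. Of the genes, 60 were called in both fits, 19 with all mice alone, 1 without the 2 mice alone and 7 in neither, and Atf3, Ntrk2, Scd2 and Col1a1 lie far above the line.

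The lists of secreted, inflammatory and stress proteins had few called genes, and over all genes tested 2.80% were called in either direction. Among 25 acute-phase proteins, Orm1 alone was called, lower (-1.03 ± 0.27, adjusted p = 0.0435, edgeR), at 236 to 663 CPM in control and 144 to 321 CPM in HFD mice. The Orm1 call was lost in 11 of 19 alternatives, though not without mouse 829, without mouse 832 or without both. Of 34 complement and coagulation genes 1 was called (F11, higher by 0.73), of 17 NRF2 antioxidant genes 1 in each direction (Gclm, the glutamate-cysteine ligase subunit, 0.50, and Srxn1), and of 31 genes of the unfolded protein and integrated stress response 2, both lower (Psat1 and Atf3). F11 kept its call in 4 of 19 alternatives and Gclm in 8 of 19, and both lost it without mouse 832 (adjusted p = 0.125 and 0.0799) and without both mice (adjusted p = 0.0532 and 0.125, all edgeR). Gclm lost it without mouse 829 as well (adjusted p = 0.0752, edgeR). Of 21 hepatokines 1 was called. It was Angptl4, an inhibitor of lipoprotein lipase, at 92.6, 60.3, 82.2, 125 and 133 CPM in control mice and at 161, 177, 164, 167 and 146 CPM in HFD mice, without overlap (0.72 ± 0.18, adjusted p = 0.033, edgeR). The Angptl4 call was lost in 11 of 19 alternatives, among them without mouse 832 (adjusted p = 0.0556) and without both mice (adjusted p = 0.0699, both edgeR). Fgf21, the fasting hormone of the liver, had a log2 fold change of -0.30 (adjusted p = 0.763, edgeR). In the list of clock genes and their output, 2 of 22 were higher, Usp2 (1.58) and Hlf (1.12). Each lost its call without mouse 829 (adjusted p = 0.138 and 0.111, edgeR), in which Usp2 stood at 91.9 CPM against 15.9 to 36.1 CPM in the other HFD mice. Both calls were also lost without mouse 832 (adjusted p = 0.112 and 0.0707) and without both mice (0.273 and 0.152, all edgeR). Of 26 apolipoprotein and lipoprotein assembly genes 0 were called in edgeR, with a median of 0.14. In 16 of the 34 lists with a tested gene, 0 genes were called by edgeR.

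**Figure D4:**
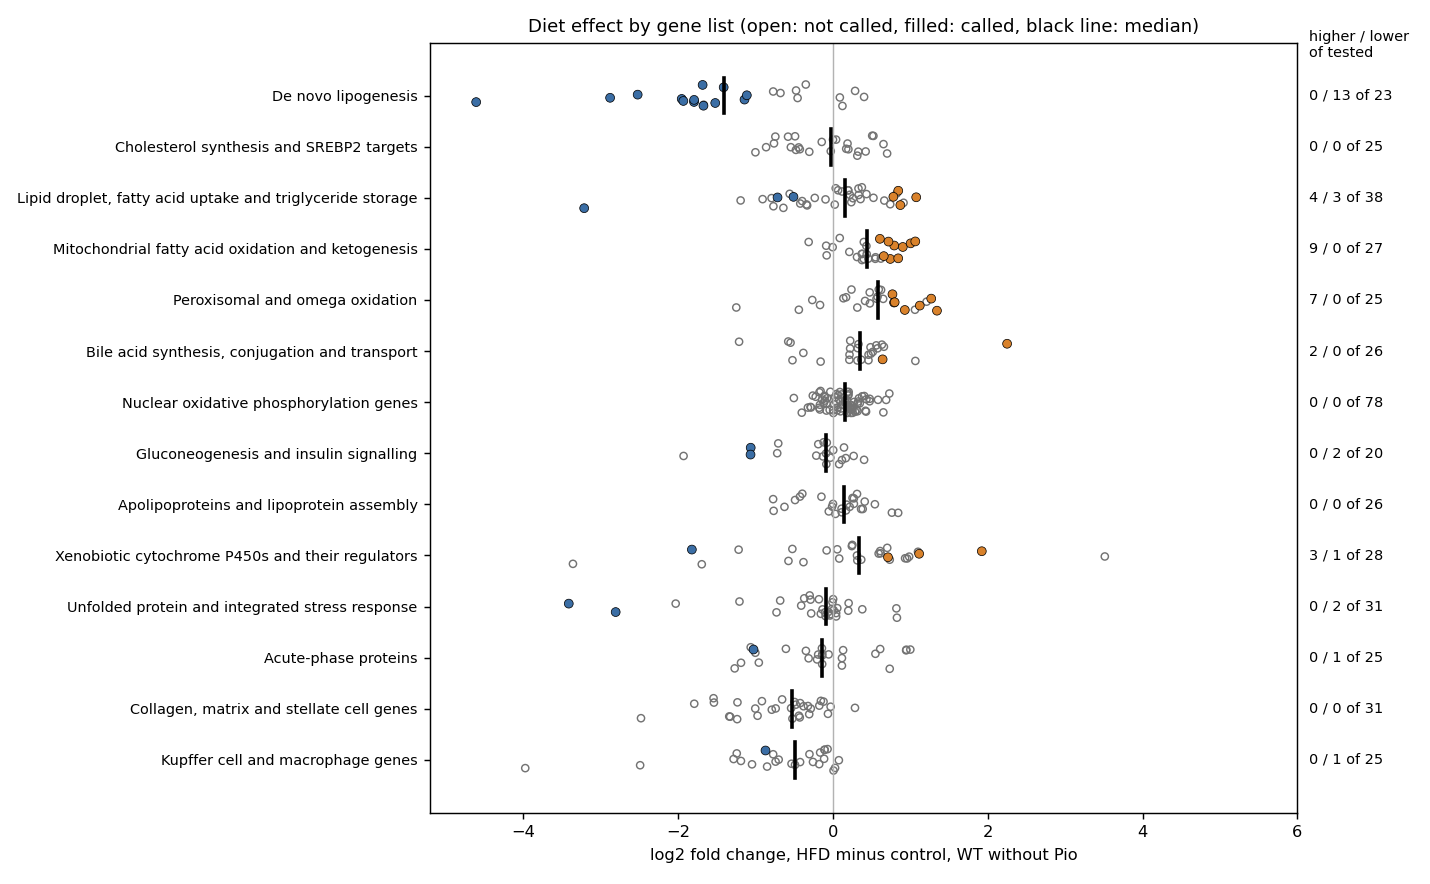
Log2 fold change, HFD minus control, in WT liver without Pio, for every tested gene of 14 lists; filled points are called by edgeR (blue lower, orange higher), open points are not, black lines are list medians, and the numbers at the right give genes higher and lower of those tested. De novo lipogenesis lies to the left with 13 of 23 genes lower, and the 2 lists of fatty acid oxidation lie to the right with 9 of 27 and 7 of 25 genes higher.

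The same diets were compared in other WT mice, all of which received Pio. In 5 HFD-Pio against 5 Pio mice, 205 of 12447 genes were called (1.65%), 55 higher (0.442%) and 150 lower (1.21%). Of the 166 genes called higher on HFD without Pio, 137 (82.5%) had a value above 0 and 16 were called higher with Pio, and of the 183 called lower, 164 (89.6%) had a value below 0 and 46 were called lower. In 0 cases was a gene called in the opposite direction. Over all genes tested, 50.9% had the same sign in both comparisons.
Of the lipogenic genes, 11 of 23 were lower with Pio and 0 higher, with a median of -1.22. Log2 fold changes with Pio were -1.69 for Fasn (adjusted p = 0.015), -1.97 for Acly (0.00307), -4.24 for Pnpla3 (0.0017) and -4.52 for Chrna4 (0.000878, all edgeR). Elovl5 was not called there (-0.55, adjusted p = 0.265). The mitochondrial oxidation list had 3 of 27 genes higher and a median of 0.45, and the peroxisomal list 1 of 25 and 0.44. Acat1 had a value of 0.45 (adjusted p = 0.111). Bhmt, which rose without Pio, had a value of -0.11 with Pio (adjusted p = 0.804).
The difference between the 2 diet effects was tested directly as an interaction, and 1 of 12447 genes was called (0.00803%). It was Cyp7a1, whose log2 fold change was 2.25 without Pio and -0.83 with Pio (adjusted p = 0.13), a difference of -3.08 ± 0.41 (SE; adjusted p = 0.00223, edgeR). Its mean was 10.5 ± 4.4 CPM (SD, n = 5) in control and 49.5 ± 18.1 in HFD mice, and 51.7 ± 17.1 in Pio and 29.2 ± 5.9 in HFD-Pio mice, so that the control mice were the low group of the 4. For Bhmt (difference -1.63, adjusted p = 0.0607) and the other genes, an effect called in one comparison and missed in the other was thus not shown to differ in edgeR. In the same test DESeq2 called 135 genes and limma with sample weights 840.

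The counts of KO mice come from a separate table, so a difference in level between KO and WT mice could come from either the genotype or the table, and only diet effects were compared. The study bred its KO mice, while its WT mice were C57BL6/J mice from a supplier, and it reports that KO mice were lighter at the start. Genotype therefore cannot be told apart from breeding origin or starting weight in the diet effects either. Pparg reads remained in KO livers, at 3.79 to 10.2 CPM in control and 3.70 to 8.73 CPM in HFD mice. As Alb-Cre acts in hepatocytes and the counts cover the whole gene, these values are no test of the deletion. HFD against control called 0 of 12457 genes in KO mice (0%), with 510 genes at an unadjusted p under 0.05 in edgeR. DESeq2 called 22 and limma with sample weights 378. Without KO Pio mouse 13, which is in neither group but shares the estimate of spread, edgeR called 48. The lipogenic list had a median of -0.30 in KO mice, against -1.41 in WT mice, and the lists of mitochondrial and peroxisomal oxidation -0.11 and -0.29, against 0.44 and 0.58. Of the genes called higher in WT mice, 78 of 161 had a value above 0 in KO mice (48.4%), and of those called lower, 93 of 179 had one below 0 (52%). Over all genes tested, 46.9% had the same sign.
A direct test of the difference between the KO and WT diet effects called 8 of 12942 genes (0.0618%), 4 with a higher and 4 with a lower effect in KO mice. Cyp4a10 had log2 fold changes of 1.34 in WT and -2.66 in KO mice, a difference of -4.04 ± 0.66 (SE; adjusted p = 0.00663, edgeR). In the KO table its mean was 364 ± 262 CPM (SD, n = 5) on control diet and 57.7 ± 28.6 on HFD. Gm4952 (-2.27, adjusted p = 0.0317) and Lgals4 (-1.82, adjusted p = 0.0447) also rose in WT mice and not in KO mice, where their values were -0.24 and -0.38. Atg16l2 (1.95, adjusted p = 0.032), Rnf144a (2.24, adjusted p = 0.0352) and Arpin (1.1, adjusted p = 0.0454, all edgeR) fell in WT mice and had values of -0.092, 0.60 and 0.35 in KO mice. Sqle, squalene epoxidase of cholesterol synthesis, and Pknox2, both named after their values were seen, complete the 8. Sqle had values of -0.58 in WT and 2.26 in KO mice (difference 2.81, adjusted p = 0.0447, edgeR). With KO Pio mouse 13 in the fit, the difference was not called for any of the lipogenic genes. In that fit the smaller values of these genes in KO mice were thus not shown to differ from those in WT mice. Without KO Pio mouse 13 the same test called 136 genes, all of the 8 among them. Whether lipogenic genes are among the 136 is not given here, so the statement on these genes holds only for the fit with that mouse.

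**Figure D5:**
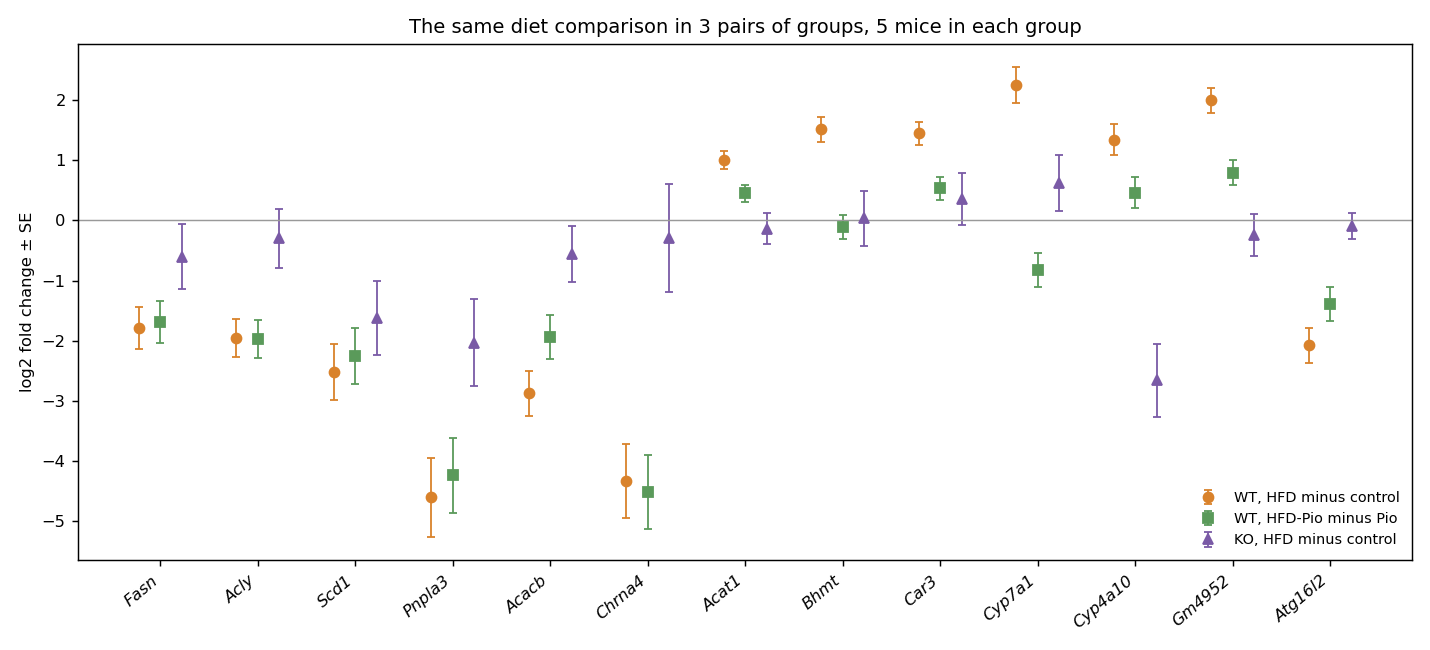
Log2 fold change ± SE (vertical axis) of 13 genes for HFD minus control in WT mice (circles), HFD-Pio minus Pio in WT mice (squares) and HFD minus control in KO mice (triangles), 5 mice in each group. Circles and squares lie within 1 SE of each other for Fasn, Acly, Scd1, Pnpla3 and Chrna4 and far apart for Cyp7a1 (2.25 and -0.83), and the Cyp4a10 triangle (-2.66) lies far below the other 2 symbols.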

How the data were processed

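Livers of 40 mice, 5 in each of 8 groups, were sequenced after poly-A selection. The authors aligned reads to GRCm38 with STAR 2.0.4b and counted reads that were uniquely aligned and unambiguous with featureCounts 1.4.5, and the deposited values are raw counts. Repeated lines (574 in the WT table, 598 in the KO table, 0 of which differed) were dropped, as were 355 rRNA genes. The 20 WT mice were fitted in 1 model of 4 group means in edgeR 4.0.16 (TMM, robust quasi-likelihood F test, Benjamini-Hochberg over all genes tested, calls at an adjusted p of at most 0.05), on genes that reached 1 CPM or more in 5 or more mice. The 20 KO mice were fitted alone, and all 40 together for the difference between genotypes. CPM values are TMM-normalised, SE are of the log2 fold change, and permutation tests were exact and two-sided over 252 splits (smallest p 0.00794). Limma 3.58.1, DESeq2 1.42.0, R 4.3.3, Python 3.11.15 and matplotlib 3.10.9 were also used, and the fit was tested on simulated counts. The mice, comparisons and 36 gene lists were chosen with earlier results of these data known. Named genes had the largest fold changes (at least 5 CPM, no overlap) or the highest level among called genes, led a list or were called in it, were exemplars of the study, or differed between diet effects, and some members of the lists are not reported here by name. P values of the fits set a difference against the spread between mice within groups, estimated over all groups of the fit and moderated across genes. For the main comparison this spread includes the WT mice that received Pio. Each group holds 5 mice, whose cages and litters are not given. The count totals set the precision, and counting error is small beside the spread between mice except for genes near 1 CPM.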

Additional observations from a re-analysis of the deposited data

Results flagged for a closer look

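Among the genes named here, 176 groups of 5 mice were looked at. In 34 of them (19.3%) 1 mouse lay further from the rest than Dixon's 95% limit for 5 values allows. That limit is made for independent, normally distributed values. Here the same mice recur in every gene, and the genes were chosen partly for large changes. The share is therefore a description and no test. Control mouse 832 accounted for 13 of these, control mouse 833 for 7, HFD mouse 829 for 6, HFD mouse 827 for 5 and control mouse 831 for 3.

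In control mouse 832 the flagged values, all the highest of the group, were 610.5 CPM for Gstm3, 23.9 for H2-Q1, 24.8 for Psat1, 50 for Tnfrsf12a, 38.5 for Dhrs9, 1169 for Cyp3a11, 27.3 for Rnf144a, 63.3 for Atf3, 47 for Ntrk2, 274.2 for Srxn1, 48.8 for Scd2, 114 for Col1a1 and 43.8 for Cidec. In control mouse 833 they were 18.1 CPM for Cyp7a1, 552 for Chrna4, 163.5 for Pnpla3, 165 for Pgd, 5486 for Tat, 209 for Acaca and 277 for Elovl6, again the highest of the group. In control mouse 831 they were 4.64 CPM for Pcp4l1, 275 for Mgll and 141 for Crat.

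HFD mouse 829 was flagged as the highest of its group for Gstm3 (62.5 CPM), Hao2 (3.55), Usp2 (91.9), Cyp2b9 (184) and Crat (211.5), and as the lowest for Pex11a (76.6). HFD mouse 827 was the highest for Lepr (3.31 CPM), H2-Q1 (4.05), Tnfrsf12a (8.39), Cyp3a11 (233) and Cfd (36.4).

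Diet effects differed between groups by the interaction test in edgeR for 9 genes. With against without Pio the log2 difference was -3.08 for Cyp7a1. In KO against WT mice it was -4.04 for Cyp4a10, -2.27 for Gm4952, 1.95 for Atg16l2, 2.24 for Rnf144a, -1.82 for Lgals4, 2.81 for Sqle, 1.1 for Arpin and -1.80 for Pknox2. In Pknox2 the WT value was 1.96, and it was not tested in the KO mice alone.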

How the results depend on the processing

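The count of 349 genes (166 higher, 183 lower) was 336 with the size factors of DESeq2, which raised the share of higher genes from 47.6% to 51.5%, 328 with the filter of filterByExpr and 336 with counts thinned to the smallest library. It was 229 (106 higher) without a filter on low counts, 617 (327 and 290) with DESeq2, 396 with limma with sample weights, 33 (17 and 16) with the 10 mice alone, where fewer mice estimate the spread, 170 (77 and 93) with all 40 mice and 91 (46 and 45) at an adjusted p of at most 0.01. Leaving out 1 mouse gave 158 to 454 genes, with 77 to 208 higher and 80 to 246 lower, and the count moved by over 1.5 times without control mouse 833 (158), HFD mouse 828 (159), HFD mouse 830 (201), HFD mouse 826 (218) or control mouse 832 (220). Without mice 829 and 832 together, an alternative chosen after the data were seen, it was 124 higher and 128 lower, of which 191 were shared with the 349. The cause was not tested in any of these.

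For HFD-Pio against Pio the count of 205 (55 higher, 150 lower) was 560 (203 and 357) with DESeq2, 2627 (1360 and 1267) with limma, 33 higher with all 40 mice and 748 (289 and 459) without mice 829 and 832. For the difference with and without Pio the count of 1 was 2, both lower, without the filter, 135 (25 higher, 110 lower) with DESeq2, 840 (463 and 377) with limma and 10, all lower, with all 40 mice. In KO mice the count of 0 was 22 with DESeq2, 378 with limma and 48 without KO Pio mouse 13, and the 8 genes that differed between genotypes became 136 without that mouse.

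Of the 80 called genes looked at one by one, 0 changed sign under any alternative, 20 lost their call without mouse 829, 19 without mouse 832 and 19 without both, and 1 was not tested without mouse 829. Of genes that were not called, Col1a1 turned to 0.18 with limma, 0.17 without mouse 832 and 0.16 without both mice, Cidec to 0.30, 0.53 and 0.40, and Cd36 to 0.24 with limma and 0.11 without mouse 832. Leaving out 1 mouse gave values down to -2.18 for Col1a1 (without HFD mouse 827), -0.40 for Cd36 (without control mouse 834) and -0.65 for Cidec (without HFD mouse 827). Over all alternatives Fasn lay between -1.96 and -1.45 and Scd1 between -2.72 and -2.30. No paired analysis was possible because the mouse numbers are all different and no label ties a mouse of one group to a mouse of another. Genes at a few CPM, such as Hao2, are limited by depth.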

Other observations

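Other lists of genes gave few calls in the comparison of HFD with control diet, in which 2.80% of all genes tested were called in either direction. Of 14 genes of the growth hormone, STAT5 and IGF axis, 1 was higher, Acsm3 (0.68, adjusted p = 0.0233, edgeR), and the median log2 fold change was 0.32. Of 22 male-biased liver genes 0 were called, with a median of 0.16, and of 15 female-biased genes Abcd2 was higher and Ntrk2 lower, while Hao2, also called higher, passed the filter on low counts only through mice in which it is high. Among 36 phase II conjugation enzymes Gstm3 alone was called, lower. The 7 mitochondrially encoded mRNAs that were tested had 0 calls and a median of 0.39. None of 22 antigen presentation and interferon genes, 11 cell cycle genes and 14 p53 targets was called, with medians of 0.060, -0.30 and -0.33, and the last 2 became 0.070 and -0.11 without mice 829 and 832. Of 16 immediate early genes Atf3 alone was called, lower, and the median was -0.58. Summed markers of endothelial cells lay at 202 to 296 CPM in HFD and 200 to 324 CPM in control mice, those of cholangiocytes at 44.3 to 87.8 and 35.1 to 111 CPM, those of blood at 429 to 1157 and 298 to 1970 CPM, those of T, B and NK cells at 9.53 to 21.3 and 9.27 to 24.8 CPM and those of neutrophils at 2.54 to 15.9 and 3.10 to 20.7 CPM, and the ranges of the 2 groups overlap in each.

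Pigr, which encodes the receptor that carries immunoglobulin A into bile, was at 1012 to 1934 CPM in control and 2074 to 3299 CPM in HFD mice (0.73 ± 0.19, adjusted p = 0.0414, edgeR), and Ndrg2 at 941 to 1664 and 1793 to 2583 CPM (0.59 ± 0.16, adjusted p = 0.0474, edgeR). Both belong to the most abundant called genes without overlap, and neither was called without mice 829 and 832. Elovl2, an elongase of polyunsaturated fatty acids, was lower, at 823 to 1128 CPM in control and 346 to 741 CPM in HFD mice (-0.65 ± 0.17, adjusted p = 0.0363), and was called without both mice (-0.54, adjusted p = 0.0143, edgeR). The unnamed transcripts Gm2788 and C730036E19Rik were higher by 2.07 and 1.46, without overlap between the groups. Exons of Gm2788 overlap those of Nav2 on the same strand and of E2f8 on the opposite strand. As only unambiguous reads were counted, reads over exons of both Gm2788 and Nav2 would be left out. For E2f8 this depends on whether counting used the strand.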
